A study of Mus musculus with 8 samples.

Results

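The genes described here are 36 named genes of glutathione metabolism and of the antioxidant response controlled by Nrf2, out of 55367 gene names in the count table. They were taken by symbol, and all 36 symbols were found. They comprise 5 genes of glutathione synthesis and recycling, 3 alpha, 7 mu, 2 pi, 3 theta, and 3 omega or kappa class glutathione transferases, 3 membrane-bound transferases, 3 other Nrf2 target enzymes, 5 genes of the thioredoxin system, and 2 superoxide dismutases. RNA-Seq of whole kidney covered 4 c-MafΔTAM mice and 4 c-Maf fl/fl mice, all of the C57BL/6J strain and 8 weeks of age. The c-MafΔTAM mice, labelled as conditional knockouts of *Maf*, carry the floxed gene and CAG-Cre-ER(TM), a Cre recombinase that tamoxifen (TAM) activates. The CAG promoter is active in most tissues, so the deletion was not limited to a kidney cell type. The c-Maf fl/fl mice, called controls below, carry the same floxed alleles without Cre, and TAM was part of the study's protocol for both genotypes. Cre activity and loss of c-Maf cannot be told apart in this design. The labels give neither the sex of the mice nor the time after TAM.

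Glutathione is a cysteine-containing tripeptide that neutralizes peroxides and reactive compounds, and the proximal tubules of the kidney make, break down, and recycle much of it. Nrf2, encoded by *Nfe2l2*, is a transcription factor that Keap1 holds at a low level until oxidants or electrophiles release it. It then pairs with a small Maf protein (MafF, MafG, or MafK) and binds the antioxidant response element (ARE) of detoxification genes, whose DNA motif resembles the Maf recognition element (MARE) bound by large Maf factors such as c-Maf.

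Libraries held 16649129 to 22990257 counts, and 20149 genes passed the filter on low counts. Levels are given as CPM, counts scaled by TMM to a common library size, and as RPKM, which also divides by exon length, where genes are compared with each other. The targeted gene, *Maf*, had 178, 671, 533, and 187 counts in c-MafΔTAM mice 1 to 4, against 7746, 7580, 6018, and 5988 in controls 1 to 4, so each library matched its label. Adjusted *P* values are Benjamini-Hochberg values over all tested genes from the quasi-likelihood test of edgeR unless another tool is named. The log2 fold change of *Maf*, c-MafΔTAM relative to controls as in all comparisons here, was -4.05 (SE 0.512, edgeR adjusted *P* = 0.0115). *Xist*, the RNA of the inactive X chromosome, had at most 22 counts in c-MafΔTAM mouse 1 and controls 3 and 4, and at least 17618 in the other 5 mice. These are called low-Xist and high-Xist mice, and values among high-Xist mice are also given for many of the genes. Such values compare 3 c-MafΔTAM mice with 2 controls. Among high-Xist mice, the log2 fold change of *Maf* was -3.87 with an edgeR adjusted *P* of 0.108. Mitochondrial genes took 17.1% to 32.3% of the counts, with the top value in c-MafΔTAM mouse 1. The extraction text in the labels names liver, whereas the tissue label is kidney. Of 6 hepatocyte markers, *Ahsg* was at 0 in all 8 mice, and their summed level was 3.59 to 21.1 CPM, against 9210 to 17943 CPM for 10 proximal tubule markers. Of the 3 hepatocyte markers tested, 0 were called (adjusted *P* under 0.05) by the quasi-likelihood test over all mice (1 lower and 1 higher at an unadjusted *P* under 0.05). *Alb* (albumin), at 0.661 to 2.57 CPM in c-MafΔTAM mice and 2.69 to 8.85 CPM in controls, was called lower by DESeq2 (adjusted *P* = 0.000453) and among high-Xist mice (edgeR adjusted *P* = 0.000529). *Serpina1a*, at 1.42 to 14.5 and 1.27 to 4.93 CPM, was called higher among high-Xist mice (edgeR adjusted *P* = 4.21e-06).

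The genes differed widely in level. Per exon length, *Gstm1*, a mu class transferase, and *Gclc*, the catalytic subunit of the enzyme that commits cysteine to glutathione synthesis, led the list in controls at 112 ± 15.7 and 101 ± 54.0 RPKM (SD, n = 4 each). *Txn1* (thioredoxin) was at 64.5 ± 10.7 RPKM and *Gsr* (glutathione reductase) at 61.6 ± 10.4 RPKM. The spread of *Gclc* was wider than its distance from the genes on either side of it. At the other end, *Gstm6* was at 0.656 ± 0.384 RPKM and *Gsto2* at 0.355 ± 0.0621 RPKM. *Gstm3* had 4 to 10 counts in c-MafΔTAM mice and 4 to 18 in controls, and *Mgst2* had 5 to 9 and 2 to 4. These 2 genes did not pass the filter on low counts, and 34 of the 36 were tested.

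**Figure D1:**
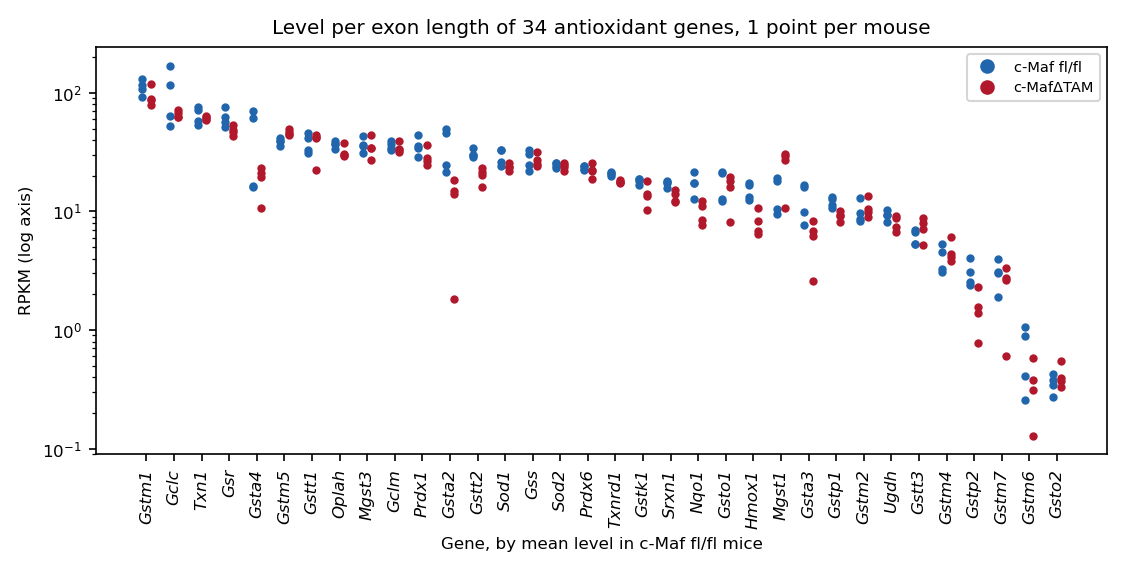
Level of each tested gene in RPKM (log axis), 1 point per mouse, with genes ordered by their mean in c-Maf fl/fl mice (blue) and c-MafΔTAM mice in red. *Gstm1* and *Gclc* lie at the top and *Gstm6* and *Gsto2* at the bottom, and the low red points of *Gsta2*, *Gsta3*, *Gstm7*, and *Gstm6* are c-MafΔTAM mouse 1.

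Without c-Maf, 3 of the 34 tested genes were lower: *Hmox1* (heme oxygenase 1), *Nqo1* (NAD(P)H quinone dehydrogenase 1), and *Gstt2* (a theta class transferase). None passed the threshold in the other direction. Over all genes tested, 2.16% passed the same threshold, an edgeR adjusted *P* under 0.05, with 1.58% lower and 0.586% higher. The set was chosen with earlier results of these data known, so such shares are given for description and are not a test. At an unadjusted *P* under 0.05, the set held 11 lower genes and 1 higher gene, where 7.44% and 6.58% of all genes were lower and higher. DESeq2 called 5 lower and 0 higher, where it called 2.87% of all genes lower and 1.62% higher. Of the 34 log2 fold changes, 28 were below 0 (49.5% of all genes were), with a median of -0.25 against 0.0027 over all genes. With upper-quartile factors 26 were below 0 (41.9% of all genes), and with quantile normalization 24 (47.4%). In 8 genes every c-MafΔTAM mouse was below every control, and in 1 gene every c-MafΔTAM mouse was above, which held for 5.62% and 4.17% of all genes. The mice of the 2 genotypes overlapped in the remaining 25. These are whole-kidney values, so fewer cells of a type and less RNA per cell cannot be told apart. Of the 10 proximal tubule markers of segments S1 and S2, 5 were lower past the threshold: *Slc5a2*, *Slc5a12*, *Slc4a4*, *Slc34a1*, and *Gatm*. The summed level of all 10 was 9210 to 12995 CPM in c-MafΔTAM mice and 15858 to 17943 CPM in controls. *Slc22a8* was below every control without passing the threshold. The genotypes overlapped in *Lrp2* (-0.17, edgeR adjusted *P* = 0.719), *Cubn* (-0.03, edgeR adjusted *P* = 0.912), *Slc22a6*, and *Pdzk1*. The study reports *Slc5a2* as directly regulated by c-Maf, so its level does not measure cell number alone. Of 8 markers of segment S3, 7 were tested and 0 were called by edgeR's quasi-likelihood test, DESeq2, or edgeR's exact test (1 higher at an unadjusted *P* under 0.05), while *Atp11a* was called higher with *Xist* as a covariate (0.47, edgeR adjusted *P* = 0.0367) and among high-Xist mice (0.40, edgeR adjusted *P* = 0.0491). The S3 sum was 4912 CPM in the low-Xist c-MafΔTAM mouse, 2834 and 3303 CPM in the low-Xist controls, and 961.4 to 1434 CPM in the high-Xist mice. Of 8 tubular injury markers, 7 were tested and 0 were called by the quasi-likelihood test (2 higher at an unadjusted *P* under 0.05). One of them, *Cdkn1a*, a cell cycle inhibitor, was higher in every c-MafΔTAM mouse than in every control (log2 fold change 1.32, edgeR adjusted *P* = 0.104), with adjusted *P* values of 0.00085 in DESeq2, 0.00283 in the exact test of edgeR, 0.0186 with *Xist* as a covariate, and 0.158 among high-Xist mice. Another, *Spp1* (osteopontin), had a log2 fold change of -0.46 over all mice (edgeR adjusted *P* = 0.544) and was called lower with *Xist* as a covariate (-0.58, edgeR adjusted *P* = 0.000953) and among high-Xist mice (-0.69, edgeR adjusted *P* = 0.000231). Of 6 endothelial markers, 1 was lower: *Kdr*, a VEGF receptor, was below every control in every c-MafΔTAM mouse (-0.37, edgeR adjusted *P* = 0.045). That call was lost in all 8 fits that left out 1 mouse, among high-Xist mice (0.0534), and with quantile normalization, upper-quartile factors, the replicate block, and edgeR's exact test (adjusted *P* from 0.0718 to 0.193). No marker of these lists was at 0 in all mice, and the part of these marker shifts in the values below was not tested.

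**Figure D2:**
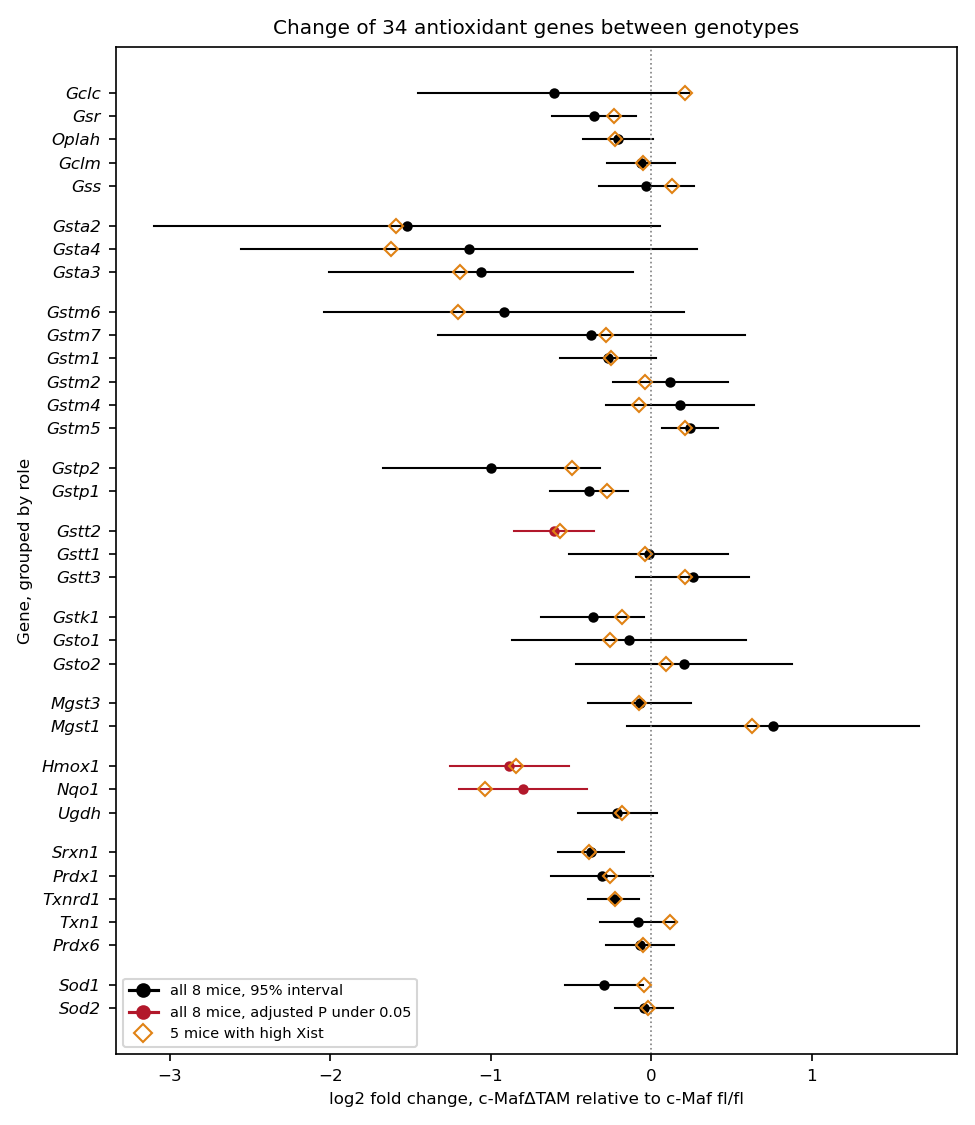
Log2 fold change of each tested gene with its 95% confidence interval over all 8 mice (points and lines, red where the adjusted *P* was under 0.05), and its value among the 5 high-Xist mice (open diamonds). *Hmox1*, *Nqo1*, and *Gstt2* are the red genes, *Gsta2* and *Gsta4* have the widest intervals, and the diamonds of *Gclc*, *Gss*, *Gstm2*, *Gstm4*, and *Txn1* lie on the other side of 0 from their points.

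Among the enzymes that Nrf2 is best known for inducing, *Hmox1* and *Nqo1* had about the same fall, to 54.2% and 57.5% of the control level, and *Ugdh* was not called. *Hmox1* breaks down heme and releases iron and carbon monoxide. Its exons span positions 75093621 to 75100589 of chromosome 8 (GRCm38, plus strand). *Hmox1* was at 18.9, 11.4, 14.5, and 12.1 CPM in c-MafΔTAM mice 1 to 4 and at 21.9, 23.3, 30.6, and 29.2 CPM in controls 1 to 4. The highest c-MafΔTAM value, in mouse 1, was below the lowest control value. The difference was -0.88 on the log2 scale (SE 0.170, 95% confidence interval -1.26 to -0.51, edgeR adjusted *P* = 0.0194), and a two-sided exact permutation test gave *P* = 0.0286, the smallest that 4 mice against 4 allow. Any gene whose genotypes do not overlap gets this permutation *P*, which is not adjusted. Among high-Xist mice, the difference was -0.84 (edgeR adjusted *P* = 0.00171). It passed the threshold in 3 of 8 fits that each left out 1 mouse, and leaving out c-MafΔTAM mouse 2, 3, or 4 or control 3 or 4 gave adjusted *P* values of 0.0573 to 0.0786. Macrophages also use *Hmox1*, and the summed level of 8 macrophage markers was 102.9 to 108.1 CPM in c-MafΔTAM and 91.6 to 99.2 CPM in controls, higher in every c-MafΔTAM mouse, with 0 of the 7 tested called by edgeR's quasi-likelihood test, DESeq2, or edgeR's exact test (1 higher at an unadjusted *P* under 0.05). The part of these cells in the *Hmox1* value was not tested.

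*Nqo1* reduces quinones without releasing radicals. Its exons span positions 107388225 to 107403206 of the same chromosome on the minus strand, with no base in an exon of another gene. *Nqo1* was at 17.4, 13.1, 12.03, and 19.0 CPM in c-MafΔTAM mice 1 to 4 and at 33.2, 27.1, 19.7, and 27.2 CPM in controls 1 to 4. The genotypes did not overlap, but c-MafΔTAM mouse 4 and control 3 were close to each other. On the log2 scale the difference was -0.80 (SE 0.181, 95% confidence interval -1.20 to -0.40, edgeR adjusted *P* = 0.0483), and the exact permutation *P* was 0.0286. This call lay at the edge of the threshold: it held in 2 of 8 fits that left out 1 mouse, those without c-MafΔTAM mouse 4 or control 3, and the other 6 fits gave adjusted *P* values of 0.0663 to 0.151. It also ended with quantile normalization (0.0620), with upper-quartile factors (0.0649), and with only genes of at least 10 counts in every mouse (0.0533). Among high-Xist mice, it was -1.03 (edgeR adjusted *P* = 0.00965).

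*Nqo1* is the called gene with a RefSeq promoter window, which is shown to let its start region be read beside that value. The window covers chr8:107403156-107403455 of GRCm38.p6 on the minus strand. It is written 5′ to 3′ in the direction of transcription, with the 250 bases before the annotated start in lower case and the 50 bases after it in capitals.
Nqo1: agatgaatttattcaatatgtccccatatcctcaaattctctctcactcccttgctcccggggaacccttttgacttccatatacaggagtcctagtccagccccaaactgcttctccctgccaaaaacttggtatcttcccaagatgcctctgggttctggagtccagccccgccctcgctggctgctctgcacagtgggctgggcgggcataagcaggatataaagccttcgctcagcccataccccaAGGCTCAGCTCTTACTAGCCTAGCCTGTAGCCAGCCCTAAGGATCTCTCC
Neither the ARE core TGACNNNGC nor the half-MARE TGCTGAC is in this window on either strand, which says nothing of sequence farther away.

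*Ugdh*, which makes the UDP-glucuronic acid used for conjugation, was at 54.13 ± 7.502 CPM in c-MafΔTAM and 62.7 ± 6.35 CPM in controls (SD, n = 4 each). The genotypes overlapped, and the log2 fold change was -0.21 (95% confidence interval -0.45 to 0.03, edgeR adjusted *P* = 0.439).

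In the thioredoxin system, which returns oxidized protein thiols and peroxiredoxins to their reduced form with NADPH, 0 of 5 genes passed the threshold, and all 5 log2 fold changes lay between -0.38 and -0.07. *Srxn1*, which encodes sulfiredoxin, the repair enzyme of overoxidized peroxiredoxins, was at 34.2, 34.3, 39.3, and 42.7 CPM in c-MafΔTAM mice 1 to 4 and at 50.3, 51.1, 48.9, and 44.9 CPM in controls 1 to 4. Every c-MafΔTAM mouse was below every control, by a small gap between c-MafΔTAM mouse 4 and control 4. *Srxn1* differed by -0.38 (log2, SE 0.0944), with an edgeR adjusted *P* of 0.0688. DESeq2 gave it an adjusted *P* of 0.0209, *Xist* as a covariate gave 0.00758, and the fit without c-MafΔTAM mouse 4 gave 0.0420. No other fit without 1 mouse passed. With edgeR's exact test, quantile normalization, upper-quartile factors, or the replicate block, and among high-Xist mice, adjusted *P* values were 0.0503 to 0.304.

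*Txnrd1*, which encodes cytosolic thioredoxin reductase, had closely spaced values, at 125.1, 122.5, 130.4, and 124.6 CPM in c-MafΔTAM mice 1 to 4 and 152.5, 141.7, 150.6, and 145.7 CPM in controls 1 to 4. The genotypes did not overlap, and the c-MafΔTAM mean was 85.1% of the control mean. That is a log2 fold change of -0.23 (SE 0.0729, edgeR adjusted *P* = 0.156), with an adjusted *P* of 0.0249 from DESeq2 and 0.0472 with *Xist* as a covariate. It did not pass in any fit without 1 mouse. With edgeR's exact test, quantile normalization, upper-quartile factors, or the replicate block, and among high-Xist mice, adjusted *P* values were 0.169 to 0.446. The exact permutation *P* was 0.0286 for both *Srxn1* and *Txnrd1* (n = 4 each), as for any gene without overlap. Of the substrate proteins, *Txn1* had a log2 fold change of -0.08 (0.12 among high-Xist mice), *Prdx1* of -0.31, and *Prdx6*, a peroxiredoxin that draws on glutathione, of -0.07. Their adjusted *P* values were 0.806, 0.378, and 0.807, and all 3 overlapped between genotypes.

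**Figure D3:**
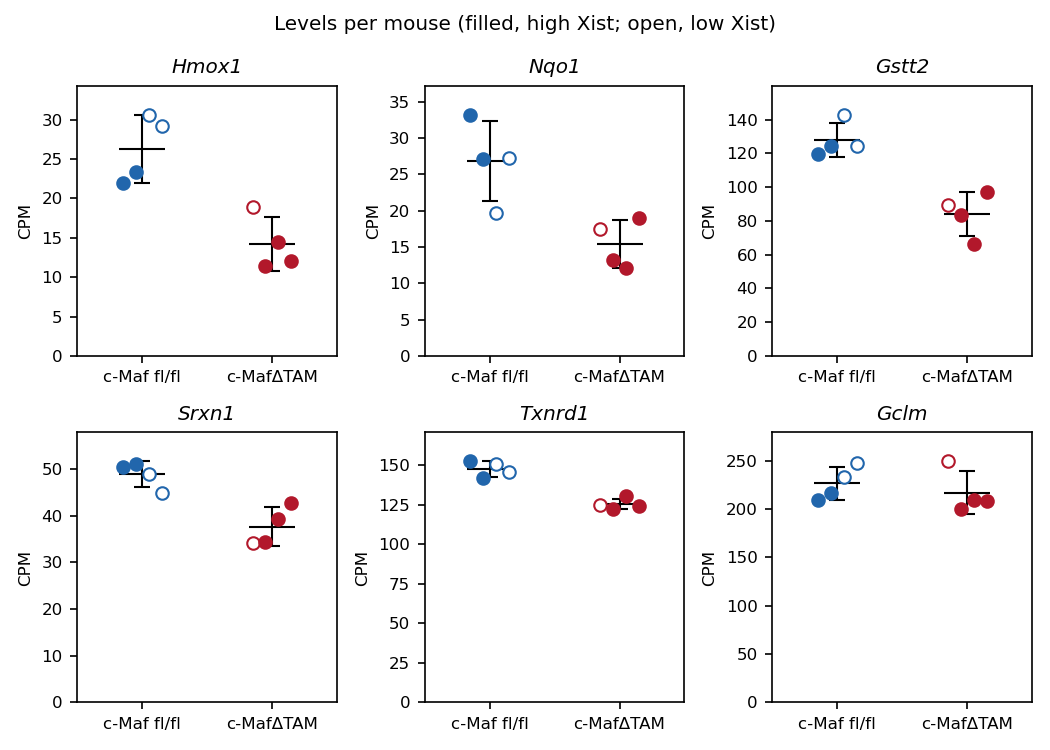
CPM per mouse of 6 genes, with the mean and SD of each genotype as black lines, filled points for high-Xist mice and open points for low-Xist mice. The genotypes are apart in all panels except *Gclm*, and in *Hmox1* the open points lie at the top of both groups.

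Glutathione synthesis and recycling had 0 of 5 genes past the threshold. All 5 log2 fold changes were below 0 with TMM scaling, although *Gss* and *Gclm* were above 0 with quantile normalization (0.06 and 0.021), and *Gss* with upper-quartile factors (0.02). *Gclc* was at 235.8, 254.1, 269.5, and 237.8 CPM in c-MafΔTAM mice 1 to 4 and at 197.9, 240.2, 441.1, and 640.1 CPM in controls 1 to 4. The c-MafΔTAM mice lay close together, whereas the controls split into high-Xist mice 1 and 2 and low-Xist mice 3 and 4. Its log2 fold change came to -0.61 over all mice (SE 0.360, 95% confidence interval -1.45 to 0.24, edgeR adjusted *P* = 0.521) and 0.21 among high-Xist mice (edgeR adjusted *P* = 0.317). Without control 4, it was -0.23. The low-Xist c-MafΔTAM mouse, at 235.8 CPM, was below both low-Xist controls.

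*Gclm*, the regulatory subunit that *Gclc* pairs with, stayed close to the controls. It was at 249.3, 199.97, 209.6, and 208.8 CPM in c-MafΔTAM mice 1 to 4 and at 209.1, 216.8, 233.1, and 247.8 CPM in controls 1 to 4. The genotypes overlapped fully, and the log2 fold change was -0.06 (SE 0.0966, 95% confidence interval -0.27 to 0.15, edgeR adjusted *P* = 0.825). *Gsr*, which reduces oxidized glutathione with NADPH, was at 147.6, 129.5, 133.7, and 119.1 CPM in c-MafΔTAM mice 1 to 4 and at 156.2, 142.4, 171.1, and 209.1 CPM in controls 1 to 4. Only c-MafΔTAM mouse 1 reached into the range of the controls, above control 2. *Gsr* differed by -0.36 on the log2 scale (SE 0.120, edgeR adjusted *P* = 0.190), -0.30 with *Xist* as a covariate (edgeR adjusted *P* = 0.0447), and -0.23 among high-Xist mice (edgeR adjusted *P* = 0.191). DESeq2, edgeR's exact test, quantile normalization, upper-quartile factors, and the replicate block gave *Gsr* adjusted *P* values of 0.136 to 0.471. *Gss*, the enzyme of the second synthesis step, was at 159.4 ± 19.4 and 162.8 ± 30.4 CPM (SD, n = 4 each, c-MafΔTAM first), a log2 fold change of -0.03 (0.13 among high-Xist mice). It shares 15.4% of its exonic bases with *Acss2*, and reads there were not counted. *Oplah*, which opens 5-oxoproline to glutamate, was at 185.6 ± 22.5 and 214.1 ± 13.1 CPM, a log2 fold change of -0.21 (edgeR adjusted *P* = 0.382), and shares 11.7% of its exonic bases with *Exosc4*.

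The 3 alpha class transferases, *Gsta2*, *Gsta3*, and *Gsta4*, which conjugate glutathione to lipid peroxidation products such as hydroxyalkenals, had the largest fitted differences of the set, and none passed the threshold over all 8 mice. All 3 were lower past it among the 5 high-Xist mice, 3 c-MafΔTAM mice and 2 controls. In that fit 3.75% of the genes tested were called, 2.22% lower and 1.53% higher. All 3 were also lower over all 8 mice once *Xist* was in the model, where 6.82% of genes were called, 4.23% lower and 2.59% higher. *Gsta2* (chromosome 9 from 78331018 to 78355788, minus strand) was at 2.14, 16.6, 21.8, and 17.5 CPM in c-MafΔTAM mice 1 to 4 and at 53.6, 58.4, 25.2, and 29.1 CPM in controls 1 to 4. Every c-MafΔTAM mouse was below every control, and within each genotype the low-Xist mice were lower than the high-Xist mice. Its log2 fold change was -1.52 over all mice (SE 0.656, 95% confidence interval -3.10 to 0.05, edgeR adjusted *P* = 0.374), -2.02 with *Xist* as a covariate (edgeR adjusted *P* = 0.0178), and -1.59 among high-Xist mice (SE 0.118, edgeR adjusted *P* = 1.02e-06). Of its 36-base sequences, 57.8% also occur in other genes, mainly *Gsta1*, so the assignment of its reads is uncertain.

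*Gsta3* (chromosome 1 from 21240589 to 21265661, plus strand) was at 11.3, 36.2, 27.1, and 29.7 CPM in c-MafΔTAM mice 1 to 4 and at 71.9, 69.2, 33.5, and 42.9 CPM in controls 1 to 4. The genotypes overlapped through c-MafΔTAM mouse 2 and control 3 only, which differ in *Xist*. Its difference was -1.06 on the log2 scale (SE 0.401, edgeR adjusted *P* = 0.303), and -1.19 among high-Xist mice (SE 0.111, edgeR adjusted *P* = 1.25e-05), a 2.28-fold lower level. *Gsta4* (chromosome 9 from 78182774 to 78209349, plus strand) was at 13.6, 26.7, 24.8, and 29.3 CPM in c-MafΔTAM mice 1 to 4 and at 77.5, 88.4, 20.5, and 20.9 CPM in controls 1 to 4. The high-Xist controls were far above all other mice, and the low-Xist controls lay among the c-MafΔTAM mice. The log2 fold change of *Gsta4* was -1.14 over all mice (SE 0.591, edgeR adjusted *P* = 0.467), -1.21 with *Xist* as a covariate (edgeR adjusted *P* = 0.0449), and -1.62 among high-Xist mice (SE 0.0993, edgeR adjusted *P* = 2.19e-07). In the low-Xist mice the c-MafΔTAM mouse was below both controls in all 3 genes, with 1 c-MafΔTAM mouse and therefore no test.

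**Figure D4:**
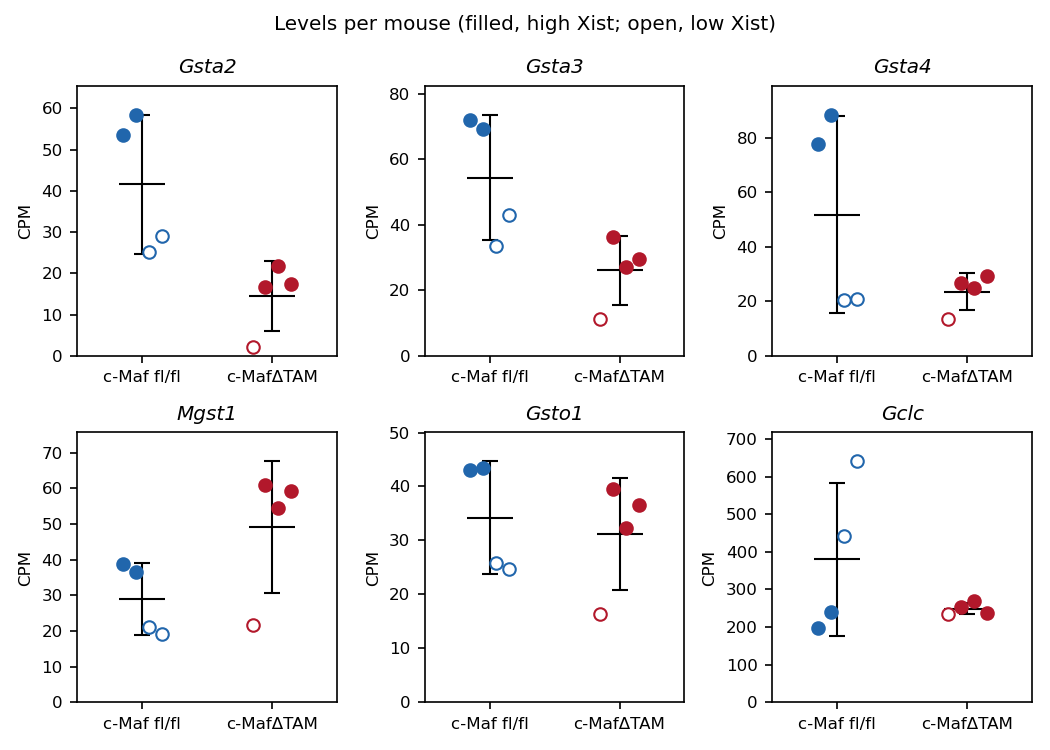
CPM per mouse of 6 genes whose values separate by *Xist*, with filled points for high-Xist mice, open points for low-Xist mice, and the mean and SD of each genotype as black lines. Filled and open points form separate groups within the controls in all 6 panels, and in *Mgst1* the filled c-MafΔTAM points lie above all other mice.

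*Mgst1*, a membrane-bound transferase of the endoplasmic reticulum and mitochondria, went the other way. It was at 21.7, 60.8, 54.6, and 59.3 CPM in c-MafΔTAM mice 1 to 4 and at 38.8, 36.6, 21.3, and 19.2 CPM in controls 1 to 4. The 3 high-Xist c-MafΔTAM mice were above all controls, and low-Xist c-MafΔTAM mouse 1 stood close to the low-Xist controls. Its log2 fold change reached 0.76 over all mice (SE 0.386, 95% confidence interval -0.15 to 1.67, edgeR adjusted *P* = 0.450), 0.51 with *Xist* as a covariate (edgeR adjusted *P* = 0.00358), and 0.63 among high-Xist mice (SE 0.0923, edgeR adjusted *P* = 0.000776). *Mgst3* was at 38.2 ± 7.73 and 40.1 ± 5.70 CPM (SD, n = 4 each), a log2 fold change of -0.07. *Gsto1*, an omega class transferase that reduces rather than conjugates, was at 16.3, 39.5, 32.3, and 36.6 CPM in c-MafΔTAM mice 1 to 4 and at 43.0, 43.5, 25.8, and 24.7 CPM in controls 1 to 4. The genotypes overlapped, and in both the low-Xist mice were the lowest. Its log2 fold change was -0.14 over all mice (SE 0.314, edgeR adjusted *P* = 0.893), -0.33 with *Xist* as a covariate (edgeR adjusted *P* = 0.0452), and -0.26 among high-Xist mice (edgeR adjusted *P* = 0.231). In the fit without c-MafΔTAM mouse 1, it was 0.08.

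Over the whole set, the fit with *Xist* as a covariate called 10 genes lower (*Hmox1*, *Nqo1*, *Gstt2*, *Srxn1*, *Txnrd1*, *Gsr*, *Gsta2*, *Gsta3*, *Gsta4*, and *Gsto1*) and *Mgst1* higher, against 4.23% and 2.59% of all genes. The fit of the 5 high-Xist mice, in which 35 of the 36 genes were tested, called 5 lower (*Hmox1*, *Nqo1*, *Gsta2*, *Gsta3*, and *Gsta4*) and *Mgst1* higher, against 2.22% and 1.53%. Among the controls alone, both high-Xist mice were above both low-Xist mice in 13 of the 34 genes and below them in 14, and 50.6% of all tested genes separated in one direction or the other. The *Xist* split may be one of sex, which no label gives. If so, sex was not balanced, with 3 c-MafΔTAM mice and 2 controls among the high-Xist mice. Some proximal tubule markers split in the same way. *Slco1a1* had 1529 to 5119 counts in low-Xist mice and 3 to 9 in high-Xist mice. *Acsm3* was at 386.7 to 544.6 and 2.03 to 6.82 CPM, while *Slc22a7* and *Slc5a1* overlapped. Sex, litter, and sampling cannot be told apart, since no label describes them, and their part in these values was not tested.

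Of the 3 theta class transferases, *Gstt2* was lower and the other 2 were not called. *Gstt2* (chromosome 10 from 75831114 to 75837424, minus strand) was at 89.5, 83.5, 66.4, and 96.9 CPM in c-MafΔTAM mice 1 to 4 and at 119.8, 124.5, 142.8, and 124.4 CPM in controls 1 to 4. The genotypes did not overlap, and the low-Xist mice lay among or beyond the others of their genotype without changing the order. This was -0.60 on the log2 scale (SE 0.114, 95% confidence interval -0.85 to -0.35, edgeR adjusted *P* = 0.0170), and the exact permutation *P* was 0.0286. The c-MafΔTAM mean was 65.8% of the control mean. Leaving out 1 mouse kept the call in 6 of 8 fits, and the adjusted *P* was 0.0653 without c-MafΔTAM mouse 2 and 0.0648 without control 3. Among high-Xist mice, the log2 fold change was -0.57 with an adjusted *P* of 0.0569. Its neighbours on chromosome 10, *Gstt1* and *Gstt3*, had log2 fold changes of -0.02 (95% confidence interval -0.51 to 0.48) and 0.26 (-0.09 to 0.61). *Gstt3* shares 13.6% of its exonic bases with *Gm20441*.

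The mu class genes, which lie side by side on chromosome 3, held no call among the 6 tested, and their log2 fold changes ran from -0.92 (*Gstm6*) to 0.24 (*Gstm5*). *Gstm6* had 5 to 47 counts per mouse and an SE of 0.512, and it ran from -1.27 to -0.57 over the fits without 1 mouse. *Gstm5* was the 1 gene of the set in which every c-MafΔTAM mouse was above every control, at 56.2 to 63.8 CPM against 45.8 to 53.5 CPM. Its adjusted *P* was 0.187 (SE 0.0803), and 13.9% of its exonic bases are shared with *4933431E20Rik*. The most abundant of the family, *Gstm1*, was at 137.1 ± 25.1 and 165.3 ± 23.1 CPM (SD, n = 4 each, c-MafΔTAM first), a log2 fold change of -0.27 (edgeR adjusted *P* = 0.413). The differences of *Gstm2* (0.12, and -0.04 among high-Xist mice), *Gstm4* (0.18, and -0.07), and *Gstm7* (-0.37, and -0.28) were within the spread of the mice, with edgeR adjusted *P* values of 0.765 to 0.807. That of *Gstm7* was -0.05 without c-MafΔTAM mouse 1, which was at 0.967 CPM, and -0.71 with *Xist* as a covariate. *Gstm1* shares 25.7% of its 36-base sequences, mainly with *Gstm2-ps1*.

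The pi class pair, *Gstp1* and *Gstp2*, was lower in every c-MafΔTAM mouse than in every control without passing the threshold. *Gstp1* was at 12.7 to 15.8 CPM in c-MafΔTAM and 16.6 to 20.3 CPM in controls (log2 fold change -0.39, SE 0.112, edgeR adjusted *P* = 0.117). *Gstp2* was at 0.865 to 2.57 and 2.66 to 4.52 CPM (log2 fold change -0.996, SE 0.309, edgeR adjusted *P* = 0.1503), and its value among high-Xist mice was -0.49 (edgeR adjusted *P* = 0.502). It had the largest fall among the genes not listed by mouse here, in which *Gstt3* had the largest rise. *Gstp1* shares 37.2% of its 36-base sequences and *Gstp2* 58.3%, mainly with each other, so these values are not independent and their split is uncertain. *Gstk1*, a mitochondrial and peroxisomal transferase, was at 20.6 ± 4.79 and 26.5 ± 1.53 CPM (SD, n = 4 each, c-MafΔTAM first), a log2 fold change of -0.37 (edgeR adjusted *P* = 0.289). *Gsto2*, at 0.966 ± 0.230 and 0.833 ± 0.146 CPM, had a log2 fold change of 0.20 (95% confidence interval -0.47 to 0.88).

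Superoxide dismutases turn superoxide into hydrogen peroxide. *Sod1*, the cytosolic enzyme, was at 86.7, 101.6, 93.2, and 94.96 CPM in c-MafΔTAM mice 1 to 4 and at 96.5, 102.8, 131.0, and 131.0 CPM in controls 1 to 4. Only the low-Xist controls stood above the c-MafΔTAM mice by a wide margin, and the log2 fold change was -0.29 over all mice (edgeR adjusted *P* = 0.260) and -0.05 among high-Xist mice (edgeR adjusted *P* = 0.867). *Sod2*, the mitochondrial enzyme, was at 240.5 ± 14.5 and 248.3 ± 11.5 CPM (SD, n = 4 each, c-MafΔTAM first), a log2 fold change of -0.05 with TMM scaling and 0.05 with quantile normalization. Its 95% confidence interval was -0.23 to 0.14, and 24.9% of its 36-base sequences recur in other genes, mainly *AC166110.4*.

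RefSeq gave 39 promoter windows of 300 bases for 29 of the 36 genes in GRCm38.p6, and none for *Gclc*, *Gsr*, *Oplah*, *Gsta4*, *Gstt2*, *Prdx6*, or *Hmox1*. The ARE core, TGACNNNGC, was searched on both strands and found in 10 of the 39 windows (25.6%), against 12.4% of 32851 windows of all genes. The half-MARE, TGCTGAC, was found in 3 (7.69%), against 4.67% of all windows. Both motifs hold the letters TGAC, so a base run can count for both, and a match is only a description of the letters. The sites below are those of the genes listed by mouse above, shown so that the motif can be compared between genes that did and did not differ. Each is written 5′ to 3′ on the gene's strand with 10 bases on either side, and capitals mark the match, which reads as the reverse complement where the motif is on the opposite strand.
Gclm: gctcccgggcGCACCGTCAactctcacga
Gsta3: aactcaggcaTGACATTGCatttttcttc
Mgst1: gcggggcttgGCACGGTCAggaggcgggg
Sod1: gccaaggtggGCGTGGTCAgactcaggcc
Srxn1: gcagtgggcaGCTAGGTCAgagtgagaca
Txnrd1: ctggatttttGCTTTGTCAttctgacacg
*Gclm* lies at chr3:122245413-122245441 and *Gsta3* at chr1:21240454-21240482. *Mgst1* lies at chr6:138140461-138140489, *Sod1* at chr16:90220696-90220724, *Srxn1* at chr2:152105542-152105570, and *Txnrd1* at chr10:82859104-82859132, all on the plus strand. The core is within 134 bases before the annotated start except in *Srxn1*, where it lies 28 bases after it. Genes with the core in this window thus had log2 fold changes of both signs over all 8 mice, from -1.06 for *Gsta3* and -0.38 for *Srxn1* through -0.06 for *Gclm* to 0.76 for *Mgst1*. The half-MARE matches were in *Gstm2*, *Gstp1*, and *Gstp2*. The stretches around it in the pi class pair, at chr19:4037967-4037993 and chr19:4042291-4042317 on the minus strand, were the same.
Gstp1: aacgtgttgaGTCAGCAtccggggcgg
Gstp2: aacgtgttgaGTCAGCAtccggggcgg

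The wider pathway was compared in the same way. Of 115 further genes listed in 7 groups, 112 were in the table and 107 were tested. Past the threshold, 11 fell and 1 rose (background 1.58% and 0.586%), and the median log2 fold change of the 107 was -0.07. These lists too were chosen with earlier results of these data known, so the background is given for description only. Nrf2 itself did not pass: *Nfe2l2* was at 89.5 ± 11.2 CPM in c-MafΔTAM and 99.4 ± 5.75 CPM in controls (SD, n = 4 each; log2 fold change -0.15, 95% confidence interval -0.37 to 0.06). *Keap1*, its inhibitor, was at 29.7 to 31.1 CPM in c-MafΔTAM mice and 32.4 to 39.6 CPM in controls, without overlap (log2 fold change -0.29, edgeR adjusted *P* = 0.1496). *Bach1*, a repressor of *Hmox1*, had a log2 fold change of 0.06 (95% confidence interval -0.09 to 0.22).

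Of the small Maf partners of Nrf2, *Mafg* was lower and *Maff* and *Mafk* were not called. *Mafg* was at 52.5, 59.4, 58.0, and 59.8 CPM in c-MafΔTAM mice 1 to 4 and at 93.3, 87.8, 103.6, and 89.9 CPM in controls 1 to 4. The groups were far apart, with little spread within either. *Mafg* differed by -0.71 on the log2 scale (SE 0.0832, edgeR adjusted *P* = 0.000705), and it passed in all 8 fits that left out 1 mouse and among high-Xist mice (-0.62, edgeR adjusted *P* = 0.000276). *Mafk* had a log2 fold change of -0.14 (95% confidence interval -0.35 to 0.07). *Maff*, at 2.83 ± 1.15 and 2.80 ± 0.580 CPM, was at 0.02 with TMM scaling and -0.10 with quantile normalization (95% confidence interval of the former -0.62 to 0.65).

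In the peroxide group, 3 of 25 tested genes fell and none rose past the threshold, and at an unadjusted *P* under 0.05 there were 5 falls and 1 rise. *Gpx3*, the secreted glutathione peroxidase that the kidney releases into plasma, was at 2216 to 3292 CPM in c-MafΔTAM and 11044 to 14335 CPM in controls (log2 fold change -2.13, SE 0.151, edgeR adjusted *P* = 1.75e-05). *Gpx1*, the cytosolic glutathione peroxidase, was at 385.5 to 436.5 and 642.2 to 953.7 CPM (-0.98, edgeR adjusted *P* = 0.0032). *Prdx5*, a mitochondrial and peroxisomal peroxiredoxin, was at 343.4 to 442.6 and 525.8 to 787.1 CPM (-0.72, edgeR adjusted *P* = 0.0191). *Prdx5* shares 19.1% of its exonic bases with *Trmt112*. It passed in 4 of 8 fits that left out 1 mouse, and lost the call without c-MafΔTAM mouse 2, 3, or 4 or control 3 (adjusted *P* from 0.0553 to 0.0837).

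Among the enzymes that supply NADPH, the reductant of both glutathione reductase and thioredoxin reductase, 2 of 10 were lower. *Idh1*, cytosolic isocitrate dehydrogenase, was at 81.4, 117.3, 126.8, and 86.8 CPM in c-MafΔTAM mice 1 to 4 and at 300.7, 317.3, 294.2, and 329.9 CPM in controls 1 to 4, or 33.2% of the control level (log2 fold change -1.59, SE 0.139, edgeR adjusted *P* = 9.49e-05). *Tkt*, transketolase of the pentose phosphate pathway, fell from a control mean of 228.3 ± 21.7 CPM to 142.6 ± 24.2 CPM (SD, n = 4 each), or by 0.68 on the log2 scale (edgeR adjusted *P* = 0.0152), and lost the call without c-MafΔTAM mouse 2 (edgeR adjusted *P* = 0.0574). Of 13 tested genes of glutathione breakdown and the gamma-glutamyl cycle, 1 was lower: *Dpep1*, the brush border dipeptidase that splits cysteinylglycine, fell from a control mean of 130.3 ± 15.3 CPM to 43.0 ± 7.59 CPM (log2 fold change -1.60, SE 0.131, edgeR adjusted *P* = 6.00e-05).

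Of 14 genes of cysteine and cystine supply, 1 was lower and 1 was higher. *Slc7a9*, a subunit of the cystine transporter of the brush border, was lower (log2 fold change -0.84, edgeR adjusted *P* = 0.00200). *Mat2a*, which makes S-adenosylmethionine from methionine, was at 286.8, 260.3, 263.1, and 237.3 CPM in c-MafΔTAM mice 1 to 4 and at 138.7, 165.4, 165.5, and 184.5 CPM in controls 1 to 4. All c-MafΔTAM mice were above all controls, with a log2 fold change of 0.68 (SE 0.103, edgeR adjusted *P* = 0.00461). *Mat2a* shares 11.3% of its exonic bases with *Particl*.

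Of 26 other Nrf2 target genes tested, 3 fell and none rose past the threshold, against 8 falls and 1 rise at an unadjusted *P* under 0.05. *Akr1a1*, an aldehyde reductase, was at 356.9 to 424.2 CPM in c-MafΔTAM and 803.0 to 1109 CPM in controls (log2 fold change -1.28, SE 0.125, edgeR adjusted *P* = 0.000185). *Ftl1*, the ferritin light chain that stores iron, was at 92.6 to 117.4 and 163.1 to 173.1 CPM (-0.62, edgeR adjusted *P* = 0.00338), but 62.6% of its 36-base sequences also occur in other genes, mainly *Ftl1-ps1*. *Ces1g*, a carboxylesterase, was at 0.254 to 0.499 CPM in c-MafΔTAM and 2.26 to 10.6 CPM in controls (-4.13, edgeR adjusted *P* = 0.00606). Its low-Xist controls were the higher ones, and the value among high-Xist mice was -2.86 (edgeR adjusted *P* = 0.00056). Of 8 other transferases of the families tested, 0 were called by the quasi-likelihood test over all mice, and an unadjusted *P* under 0.05 gave 1 fall and 1 rise. With *Xist* as a covariate, *Gsta1* was called lower (-1.30, edgeR adjusted *P* = 0.0390) and *Clic4* higher (0.40, edgeR adjusted *P* = 0.00213), and *Clic4* was also called higher among high-Xist mice (0.42, edgeR adjusted *P* = 0.0103).

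**Figure D5:**
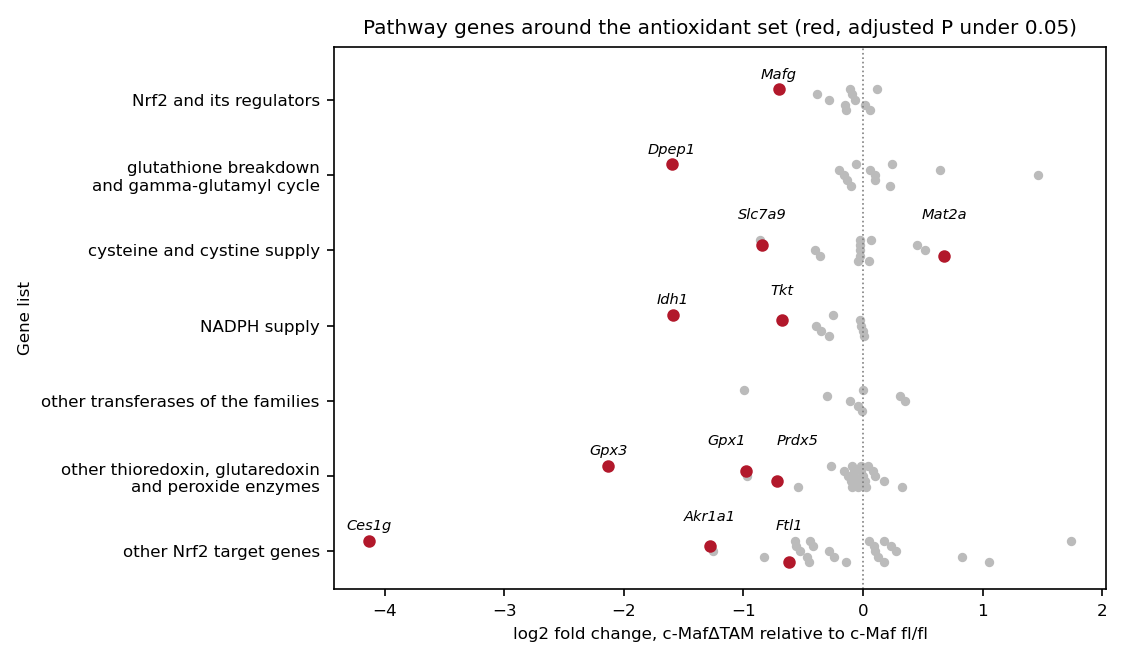
Log2 fold change of 107 further pathway genes in 7 lists, 1 point per gene, with genes past the adjusted *P* threshold of 0.05 in red and named. The red points lie to the left of 0 except *Mat2a* at 0.68, and *Ces1g* at -4.13 and *Gpx3* at -2.13 are the farthest left.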

How the data were processed

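Total RNA from 8 whole kidneys was depleted of ribosomal RNA, made into directional libraries, and sequenced as paired reads of 36 bases. The authors deposited whole-number counts per gene name, made with featureCounts 2.0.1 per the file headers (the labels list Subread 2.0.2 and edgeR 3.36.0) on the exons of Ensembl release 102, GRCm38. Reads of a pair were counted separately, without strand, and reads on exons of more than 1 gene were left out, so antisense or overlapping genes lose or share reads. The study's methods describe mapping to mm10 in the CLC Genomics Workbench for its own values. Whether that mapping fed the deposited counts is not stated, and the file header names no aligner. The counts are not normalized, and 0 columns were left unused.

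From these counts, CPM and RPKM values were computed here with TMM factors (0.857 to 1.11) and the exon lengths in the file. Genes kept by filterByExpr entered edgeR's quasi-likelihood test (robust fit) without covariates, with Benjamini-Hochberg adjustment over 20149 genes (R 4.3.3, edgeR 4.0.16, limma 3.58.1). Permutation tests were exact and two-sided over 70 assignments of the mice. A prior count of 2 entered the log2 values, and SEs were derived from F (absolute log2 fold change over the root of F). Confidence intervals are at 95%. The tests were repeated with other scalings (RLE, upper quartile, quantile with limma-trend), with other tools (the exact test of edgeR, DESeq2 1.42.0), with looser and stricter filters (1 count in some mouse, 10 counts in all mice), with *Xist* (log2 CPM) or the replicate number in the model, in the 5 mice above 1000 *Xist* counts, without mitochondrial genes, and without each single mouse.

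Values in every mouse were given by rule for genes of the set with an adjusted *P* under 0.05 in the main, *Xist* covariate, or high-Xist fit, and for *Gclc*, *Gclm*, *Nqo1*, *Hmox1*, *Srxn1*, and *Txnrd1*. Of the pathway lists, the rule named *Nfe2l2*, *Keap1*, *Bach1*, the small Maf genes, and each gene called in the main test. Values of *Sod1* per mouse, its ARE site, the values of *Lrp2*, *Cubn*, *Cdkn1a*, *Spp1*, *Kdr*, *Alb*, *Serpina1a*, *Atp11a*, *Gsta1*, and *Clic4*, and the pi class sites were added after values had been seen. The genes, the pathway lists, and the marker lists were chosen with earlier results of these data known. From these lists, *Gsta5*, *Gsta13*, and *Trim16l* were not matched. Coordinates and exon overlap came from the deposited file, shared 36-base sequences from GENCODE transcripts of GRCm38, and promoters from RefSeq (GRCm38.p6), which matched 29 of 36 genes. The 12 within-genotype pairs of libraries each differed beyond counting noise (chi-square per degree of freedom 5.04 to 95.8). Libraries are numbered replicates in the labels, and the study gives 4 mice per genotype for its RNA-Seq. Each library was therefore taken as 1 mouse, and *P* values measure the spread between these libraries. Scripts were tested on simulated counts. Figures used matplotlib 3.10.9 in Python 3.11.15.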

Additional observations from a re-analysis of the deposited data

Results flagged for a closer look

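In 3 of 104 groups of 4 mice examined over the genes described, 1 mouse stood apart from the other 3 by more than Dixon's 95% limit, where chance gives about 5.2. *Oplah* in c-MafΔTAM mouse 4 reached 219.1 CPM, and the other 3 lay between 172.2 and 178.0 CPM (ratio of gap to range 0.876). *Gstt1* in c-MafΔTAM mouse 1 had 34.4 CPM, with 63.2 to 67.5 CPM elsewhere in its genotype (0.868). *Mgst1* in c-MafΔTAM mouse 1 had 21.7 CPM, with 54.6 to 60.8 CPM elsewhere (0.842). That mouse also had low *Xist* and the largest mitochondrial share, 32.3%, and the part of either in these values was not tested.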

How the results depend on the processing

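Replicate numbers did not pair the mice: deviations of same-numbered mice correlated at -0.37 to 0.15, with 1 of 4 pairs over 0.1. With the replicate number as a block all the same, *Maf* was at -4.28 (adjusted *P* = 0.0516), 1 gene of the set was lower (*Nqo1*), and 7 pathway genes were lower and 0 higher. Among high-Xist mice, *Maf* was at -3.87 (adjusted *P* = 0.108), 5 genes of the set were lower and 1 higher, and 16 pathway genes were lower and 7 higher. With *Xist* as a covariate, 10 genes of the set were lower and 1 higher, and 20 pathway genes were lower and 5 higher. DESeq2 called 5 genes of the set lower. Of the pathway genes, DESeq2 and edgeR's exact test each called 14 lower and 2 higher, the filter of at least 1 count 12 and 2, and quantile normalization 10 and 3. With 1 mouse left out, 0 to 3 genes of the set were lower (0 without c-MafΔTAM mouse 2; 1 without c-MafΔTAM mouse 3 or control 3 or 4) and 0 higher, and 9 to 12 pathway genes were lower and 1 to 2 higher. Over all genes, 436 were called, of which 27.1% were higher. This was 676 (37.3%) with edgeR's exact test, 887 (36.1%) with DESeq2, 1375 (38.0%) with *Xist* as a covariate, 789 (40.8%) among high-Xist mice, and 129 (13.95%) with the block. Among the genes listed by mouse by rule and the named pathway genes, the sign turned for *Gclc* among high-Xist mice (0.21), *Gclm* with quantile normalization (0.021), and *Gsto1* without c-MafΔTAM mouse 1 (0.078, with -0.27 to 0.078 over the fits without 1 mouse). *Maff*, at 0.017, turned with quantile normalization (-0.10), the block (-0.034), and *Xist* (-0.012), and ran from -0.26 to 0.19 without 1 mouse, below 0 without c-MafΔTAM mouse 2 or 4 or control 2 or 4. Of the rest of the set, *Gss*, *Txn1*, *Gstm2*, and *Gstm4* turned among high-Xist mice, *Gss* with *Xist*, *Gss*, *Gstt1*, and *Sod2* with quantile normalization, *Gss* and *Gstt1* with upper-quartile factors, and *Gss*, *Gstm2*, *Gstt1*, *Mgst3*, *Txn1*, and *Prdx6* in at least 1 fit without 1 mouse. The cause of these changes was not tested. Of the other values of the genes named by rule (30 in all), 514 kept their direction and side of the threshold, 30 lost the call, and 15 gained it. Values of genes near the threshold rest on 4 mice per genotype, and *Gstm3* and *Mgst2* had too few counts to enter the main fit.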
